A study of Mus musculus with 5 samples.

Results

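JunB promoter regions without H3K27ac were defined as stretches of the mouse genome where mJunB bound within 3 kb of a transcription start site (TSS) and where no peak of acetylated histone H3 lysine 27 was called. They were chosen by the peak lists themselves. The peaks of all 4 JunB libraries were merged wherever they touched or overlapped on chromosomes 1 to 19 and X, regions within 3 kb of a TSS of GENCODE release M21 were kept, and those that shared any base with an H3K27ac peak were removed. Of 18748 merged regions, 6956 lay within 3 kb of a TSS, and 2723 of these carried no H3K27ac. The remaining 4233 promoter regions overlapped H3K27ac and served as the comparison. A further 7990 regions lacked H3K27ac but lay more than 3 kb from any TSS.

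The study profiled muscle stem cells (MuSCs), freshly isolated from mouse hindlimb muscle, by CUT&RUN-seq, in which an antibody guides a nuclease to cut and release the DNA around a bound protein. The 5 libraries comprised 3 JunB libraries of young mice (Young 1 to 3), 1 JunB library of aged mice (Aged 1) and 1 H3K27ac library, for which the labels give no age and which the study's methods tie to a separate mapping project. The labels give no strain, genotype, sex or age in months for any of these libraries. The series' design text speaks of DMSO and MVC treatment where the sample titles say young and aged, and the titles were followed. A comparison of ages therefore rests on 1 aged library, and acetylation could not be matched to age.

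JunB is a subunit of the AP-1 transcription factor, a leucine-zipper dimer of Jun and Fos family proteins that recognises a short palindromic DNA word and is induced rapidly by growth factors, cytokines and tissue dissociation. H3K27ac is laid down by the acetyltransferases p300 and CBP and marks promoters and enhancers in use. Promoters of genes in use usually carry it on the nucleosomes that flank the TSS, and AP-1 is known for binding at enhancers more than at promoters.

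Of the 12 MuSC marker genes examined, 8 had H3K27ac within 3 kb of a TSS, among them Myod1, Vcam1, Itga7, Cdh15 and Cd34. Pax7, the factor that defines MuSCs, and Myf5 had none. H3K27ac was also called at 3 of 6 fibro-adipogenic progenitor genes, 3 of 6 myofibre genes, 2 of 6 endothelial genes, 2 of 5 smooth muscle and pericyte genes and 1 of 8 immune genes. Over all protein-coding genes the share with H3K27ac within 3 kb of a TSS was 50.2%. The part of other cells in the results was not tested. The study's methods sort MuSCs of young and aged mice as VCAM+ cells that lack CD45, CD31 and SCA1, a gate that removes immune, endothelial and fibro-adipogenic progenitor cells. A GFP+ sort of reporter mice is described as well and is taken up below with Young 1. The JunB lists held between 3796 and 9327 peaks in young libraries and 13971 in the aged library on the chromosomes used, and had not passed the same threshold: the lowest deposited −log10 p was 3.01 in Young 1 and Aged 1, 5.33 in Young 2 and 5.22 in Young 3. No read counts were used, so read depth is not known for any peak, and confidence intervals below cover counting of regions only.

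Sequences at strongly bound sites and at Il6 are shown first, those without and then those with the AP-1 word. Sequence is the readout that the selection did not use. BC046401, a non-coding transcript gene on chromosome 2, had the highest-ranked region of the 227 that were bound in all 4 libraries. The sequence from 50 bp before to 50 bp after its summit, together with that of 3 other strongly bound regions of this set, contained no exact copy of the AP-1 word, TGACTCA or TGAGTCA. H1foo encodes the linker histone of oocytes, Kdm6b a demethylase of H3K27 and Coro1c an actin-binding coronin. The sequences are given as read from GRCm38.p6 on the plus strand, and none of these windows overlaps an annotated UTR.
BC046401, chr2:165855930-165856030, plus strand: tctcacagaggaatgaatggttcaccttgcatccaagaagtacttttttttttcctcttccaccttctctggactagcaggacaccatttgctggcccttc
H1foo, chr6:115944065-115944165, plus strand: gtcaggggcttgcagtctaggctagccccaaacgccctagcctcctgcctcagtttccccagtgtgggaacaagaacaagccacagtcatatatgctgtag
Kdm6b, chr11:69410570-69410670, plus strand: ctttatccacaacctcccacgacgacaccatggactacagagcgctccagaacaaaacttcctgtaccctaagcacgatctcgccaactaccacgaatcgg
Coro1c, chr5:113874312-113874412, plus strand: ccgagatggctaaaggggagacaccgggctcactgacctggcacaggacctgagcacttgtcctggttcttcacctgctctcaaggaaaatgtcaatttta

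By contrast, the 4 regions shown next held the AP-1 word within 50 bp of the summit, and it is printed in capitals. Showing 4 regions of each kind does not reflect frequency, as only 4.63% of all regions without H3K27ac held the word. The regions at Runx1 and Cd68, named below, held it too and are not printed. Nt5dc3, which encodes a nucleotidase domain protein, and AC122818.2, a long intergenic non-coding RNA gene, were bound in all 4 libraries. Platr29, a non-coding RNA gene, and Il6, the gene of interleukin 6, were bound in Aged 1 alone. The peak at Il6 was not among the strongest, with a −log10 p at percentile 46.3 of that library.
Nt5dc3, chr10:86778638-86778738, plus strand: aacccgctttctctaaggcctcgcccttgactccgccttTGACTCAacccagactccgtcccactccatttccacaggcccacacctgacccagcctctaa
AC122818.2, chr17:87571452-87571552, plus strand: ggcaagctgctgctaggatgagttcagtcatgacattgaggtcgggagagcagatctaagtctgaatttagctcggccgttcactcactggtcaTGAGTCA
Platr29, chr2:165982991-165983091, plus strand: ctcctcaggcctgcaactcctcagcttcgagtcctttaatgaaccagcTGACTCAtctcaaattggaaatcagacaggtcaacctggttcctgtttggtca
Il6, chr5:30012848-30012948, plus strand: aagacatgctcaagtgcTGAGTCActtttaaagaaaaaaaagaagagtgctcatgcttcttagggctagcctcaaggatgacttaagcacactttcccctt

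The 10 highest-ranked regions bound in all 4 libraries are described next by the −log10 p of the JunB peak, with Young 1, Young 2, Young 3 and Aged 1 in that order. These values are relative to each library's own background and are not comparable between libraries in size, so regions were ranked by their percentile within each library. At BC046401 (chr2:165855590-165856205, 1479 bp upstream of the TSS) the values were 172, 153, 94.8 and 67.8, and the fold enrichment over the local background was 25.4, 24.6, 23.0 and 16.7. At H1foo (chr6:115943895-115944299, 639 bp upstream) the values were 149, 122, 74.5 and 40.2. At Gpd1 (chr15:99715111-99715690, 1825 bp upstream), which encodes the cytosolic glycerol-3-phosphate dehydrogenase, they were 104.98, 77.2, 59.2 and 35. Over the 10 regions the mean percentile rank ran from 95.9 at Gm26800 to 99.2 at BC046401.

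Nt5dc3 (chr10:86778287-86778953) was bound 52 bp upstream of its TSS, with −log10 p of 104, 71.9, 54.0 and 48.6. Kdm6b (chr11:69410449-69411332) was bound in an intron, 2343 bp downstream of the nearest TSS, with values of 123, 65.2, 56.8 and 33.6. Coro1c (chr5:113874196-113874616) was bound 32 bp downstream of a TSS, with values of 90.9, 101.25, 75.8 and 17.0. Npas2, the gene of a circadian clock transcription factor, was bound 2095 bp inside the gene (chr1:39196307-39196943) with values of 88.0, 90.6, 52.7 and 35.2. AC122818.2 (chr17:87571246-87571819) was bound across its TSS with 75.9, 73.9, 53.2 and 27. Gm15663 (chr10:105571648-105572002, 1951 bp upstream) gave 54.3, 78.7, 65.2 and 20.8, and Gm26800 (chr16:57281372-57282001, 482 bp downstream) gave 73.8, 69.1, 53.7 and 19.3. The number was lowest in Aged 1 at each of these 10, which, with no common scale between libraries, is not read as weaker binding. Over all 227 regions bound in 4 libraries the median −log10 p was 20.5, 19.3, 15.3 and 13.5.

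**Figure D1:**
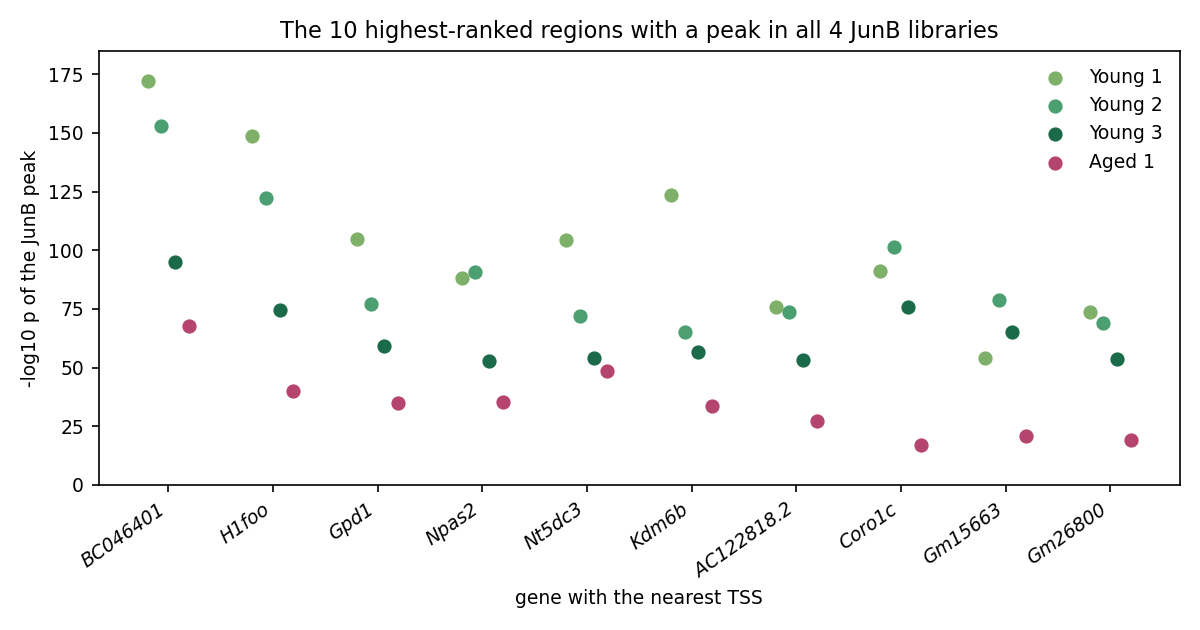
The −log10 p of the JunB peak (vertical axis) in each of the 4 JunB libraries (coloured points) for the 10 highest-ranked regions without H3K27ac that had a peak in every library, named by the gene with the nearest TSS. BC046401 reached 172 in Young 1, and the aged library ran from 17.0 at Coro1c to 67.8 at BC046401. The values of different libraries have no common scale.

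H3K27ac was near some of these strongly bound regions and far from others. The nearest H3K27ac peak lay 60 bp from the region at Gm15663, 928 bp from that at Kdm6b and 1388 bp from that at BC046401. At AC122818.2 it lay 39263 bp away, at Gm26800 13022 bp, at H1foo 10926 bp and at Gpd1 9893 bp. Of the 10, 3 had H3K27ac elsewhere within 3 kb of the same TSS, namely BC046401, Npas2 and Gm15663.

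A further 3 regions bound in all 4 libraries were chosen after their values were seen, at genes known to respond quickly to stimuli. Csrnp1, a nuclear protein gene, was bound across its TSS (chr9:119982603-119983394) with −log10 p of 48.3, 39.5, 23.6 and 24.7, and the nearest H3K27ac peak was 44964 bp away. Dusp1, the gene of a phosphatase that switches off MAP kinases, was bound 105 bp upstream (chr17:26508624-26509150) with 10.9, 58.9, 38.6 and 29.8, and H3K27ac lay 4661 bp away. Pim1, a serine/threonine kinase gene, was bound 280 bp upstream (chr17:29489247-29490473) with 55.2, 43.2, 36.6 and 25.2, and H3K27ac lay 1731 bp away.

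Most regions without H3K27ac were seen in a single library. Of the 2723, 2005 (73.6%, exact binomial 95% confidence interval 71.9 to 75.3%) had a peak in 1 library, 307 in 2, 184 in 3 and 227 (8.34%, 7.32 to 9.44%) in all 4. Among promoter regions with H3K27ac, 55.0% (53.5 to 56.5%) were seen in 1 library and 18.6% (17.5 to 19.8%) in all 4. Of the distal regions without H3K27ac, 78.7% were seen in 1 library and 6.45% in all 4. Read the other way, 46.3% of the promoter regions seen in 1 library lacked H3K27ac, against 32.5% of those seen in 2, 27.7% of those in 3 and 22.4% of those in all 4. Width moved with this: the median was 313 bp without H3K27ac and 442 bp with it. Among regions wider than 500 bp the share bound in all 4 libraries was 26.8% without and 36.0% with H3K27ac, a gap little smaller than over all regions. Among those of 300 to 500 bp it was 8.68% and 9.99%, a much smaller gap. The part of width in the result was not tested.

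Aged 1 alone accounted for 1555 regions, or 57.1% (55.2 to 59.0%) of the 2723, and for 47.8% (46.3 to 49.4%) of promoter regions with H3K27ac. At matched width the direction turned for shorter regions: below 300 bp the share of Aged 1 alone was 70.01% without and 73.3% with the mark, at 300 to 500 bp 54.9% and 58.0%, and above 500 bp 30.5% and 25.01%. Young 1 alone accounted for 385, Young 2 alone for 34 and Young 3 alone for 31. Regions bound in both ages numbered 599, and 569 were seen in young libraries only. Binding shared between ages carried the mark more often: 24.9% of promoter regions bound in both ages lacked H3K27ac, against 43.4% of those of Aged 1 alone and 58.8% of those of young libraries alone. Regions bound in both ages have a peak in more than 1 library by definition. The share without H3K27ac also fell with the number of libraries, as given above, and the part of library count was not tested. With only peaks above the highest of the 4 lowest −log10 p values, Aged 1 alone held 51.2%, and with the 2000 highest peaks of each library it held 23.4%. Without Aged 1, 1208 regions were found in place of 2723. Age and library cannot be told apart. Each combination of young libraries had a larger share without H3K27ac when Aged 1 had no peak there, for example 57.1% against 22.4% for all 3 young libraries and 62.1% against 31.5% for Young 1.

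**Figure D2:**
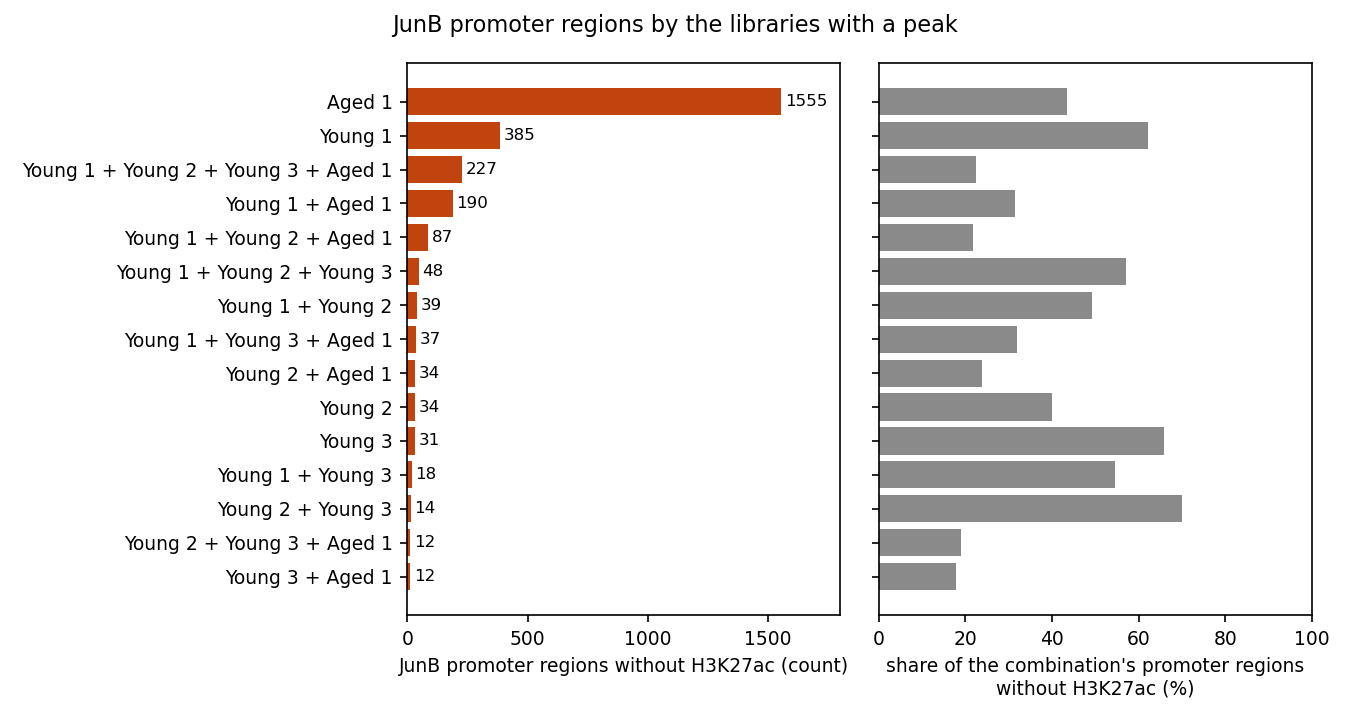
Number of JunB promoter regions without H3K27ac (left, red bars) by the combination of libraries with a peak, and the share of all promoter regions of the same combination that lacked H3K27ac (right, grey bars, %). Aged 1 alone gave 1555 regions and Young 1 alone 385, and combinations of young libraries without Aged 1 had larger unacetylated shares than combinations that included it beside them.

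Within each library, the share of its promoter regions without H3K27ac was 34.9% in Young 1 (1031 of 2952), 26.2% in Young 2 (495 of 1889), 27.6% in Young 3 (399 of 1445) and 36.0% in Aged 1 (2154 of 5988). The young mean was 29.6% ± 4.68 (SD, n = 3), and 27.1% without Young 1. The peak names of Young 1 carry the word gfp, those of the other young libraries do not, and its list was scored by p rather than q. The study's methods also describe a GFP+ sort, for MuSCs of control and JunB-knockout mice, which carry a Pax7-driven Cre and a YFP reporter. Whether the cells of Young 1 came from that sort or from the VCAM+ sort is not given in the sources used here. Aged 1 was above all 3 young libraries, by little over Young 1, and no test between ages was possible with 1 aged library. The 2 libraries with the longest lists, Aged 1 and Young 1, also had the larger shares.

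JunB enrichment was slightly lower at promoters without H3K27ac in every library. Median fold enrichment without and with H3K27ac was 4.98 and 6.02 in Young 1, 7.41 and 7.65 in Young 2, 7.96 and 8.10 in Young 3, and 4.81 and 5.42 in Aged 1. The mean within-library difference was −0.51 ± 0.41 (SD, n = 4 libraries) and negative in all 4 (exact sign-flip permutation test, two-sided, p = 0.13, the smallest that 4 libraries allow). The test could therefore not pass 0.05. The median percentile rank was 47.6, 46.4, 45.7 and 48.4 without H3K27ac and 62.3, 50.4, 51.1 and 64.3 with it. The difference in rank was larger in Young 1 and Aged 1, whose lists reached down to lower −log10 p.

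Regions bound in at least 2 young libraries but not in Aged 1 numbered 119. The highest-ranked was 2222 bp upstream of Rabggta (chr14:55724485-55725020), which encodes a subunit of the enzyme that attaches lipid anchors to Rab GTPases, with −log10 p of 54.6, 54.2 and 34.4 in Young 1, Young 2 and Young 3. Btn2a2, a butyrophilin gene, was bound across its TSS (chr13:23488739-23489396) with 62.2, 38.6 and 30.6. At Pde4b, the gene of a cyclic AMP phosphodiesterase, the region (chr4:102253084-102253391) gave 35.2, 35.5 and 35.3. Atl2, an atlastin gene of the endoplasmic reticulum, had a region 2190 bp upstream (chr17:79898313-79898646) with 25.9, 46.1 and 20.05. Klhl40, a muscle gene of the Kelch family, was bound 995 bp upstream (chr9:121776248-121776612) in Young 2 (29.5) and Young 3 (29.6) only. None of these 5 had a peak in Aged 1.

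The strongest regions of Aged 1 alone were of 2 kinds, with high fold enrichment or with a high −log10 p at lower fold. Runx1, the gene of a Runt-family transcription factor, was bound across a TSS (chr16:92825413-92825875) with 12.2-fold enrichment and a −log10 p of 37.3, and H3K27ac lay 271 bp away. Platr29 (chr2:165982816-165983265) had 26.6 and 10.6-fold enrichment, and Gt(ROSA)26Sor (chr6:113076537-113077297) had 23.1 and 9.11-fold. Gm10800 (chr2:98664919-98665232) had a far higher −log10 p, 112, at 4.53-fold, and Gm10721 (chr9:3010838-3011106) had 30.1 with only 1.90-fold.

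Gm10721 and its neighbours at the start of chromosome 9 formed the densest run, 10 regions in chr9:3003959-3034032 at the predicted genes Gm11168, Gm10721, Gm10720, Gm10719, Gm10717 and Gm17535. One of them, 711 bp upstream of Gm10721, had a −log10 p of 214 in Young 1, 130 in Young 2 and 30.4 in Aged 1, with 2.34-fold enrichment in Young 1. The window around the summit of the Aged 1 region at Gm10721 consisted wholly (100%) of soft-masked repeat sequence. The next run held 8 regions at small RNA genes within chr7:59728775-59779226, and the third held 6 at Sfi1, a centrosomal protein gene, and Fau-ps2, in chr11:3137256-3199680. None of the regions in these 3 runs was found in all 4 libraries. Across the whole set, 291 regions (10.7%) had at least 50% of the bases within 150 bp of the summit soft-masked, against 1.77% of promoter regions with H3K27ac. Among distal regions without H3K27ac the share was larger, 39.2%. Repeat content was higher in Young 1 (13.5% of its regions) than in Young 2 (4.85%), Young 3 (2.76%) and Aged 1 (7.61%). Without the 291 regions, 2432 remained. The region at Gm10800 was among those that remained, as 6.31% of the bases within 150 bp of its summit were soft-masked.

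Regions without H3K27ac lay farther from the TSS. Their median distance was 478 bp (interquartile range 17 to 1530 bp) against 0 bp (0 to 243 bp) with H3K27ac, and 50.5% (48.6 to 52.4%) against 80.7% (79.5 to 81.9%) were within 500 bp. A TSS was spanned by 627 regions (23.0%) without and 2334 (55.1%) with the mark. Upstream regions (1134) were somewhat more frequent than downstream ones (962). The share without H3K27ac grew with distance, from 21.2% of regions spanning a TSS to 40.9% at 1 to 500 bp, 57.8% from there to 1 kb and 64.1% between 1 and 3 kb. The H3K27ac list took part in the selection, so this gradient is given as a description.

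The difference was present in each library. The share of regions within 500 bp of a TSS was 43.4%, 49.5%, 48.1% and 55.3% in Young 1, Young 2, Young 3 and Aged 1 without H3K27ac, and 73.6%, 75.3%, 75.2% and 83.4% with it. At the summit, 45.1% of regions without the mark were intronic, 31.1% intergenic and 23.9% exonic, while with the mark 33.1%, 29.2% and 37.7% were. Regions just inside the 3 kb limit were at Ppard (2997 bp) and Gm47617 (2996 bp), and just outside it at Plekhg5 and Gm8659, each 1 bp past it.

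**Figure D3:**
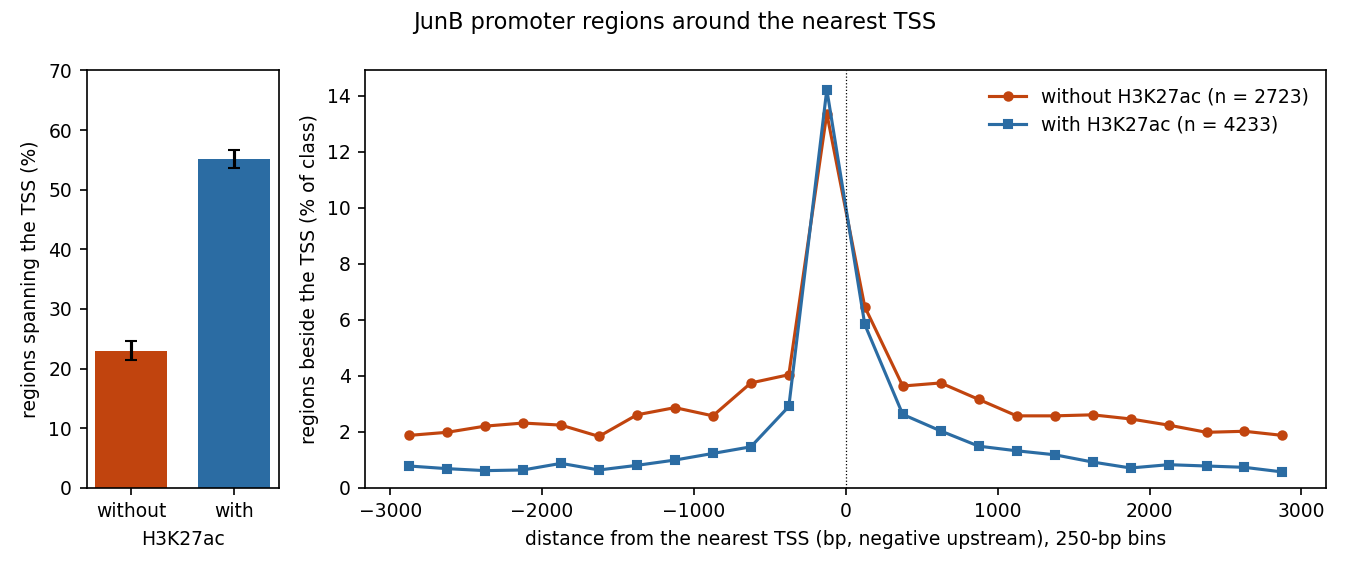
Left, the share of regions that span a TSS (%, bars, with exact binomial 95% confidence intervals). Right, the share of all regions of the class in each 250-bp bin of distance from the nearest TSS (horizontal axis, bp, negative upstream). Both classes peaked just upstream of the TSS, but 23.0% of regions without H3K27ac against 55.1% with it spanned the TSS, and the former were more frequent in every bin beyond 500 bp.

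The nearest H3K27ac peak was a median of 7266 bp away (interquartile range 1344 to 26876 bp), against 21167 bp for the distal regions without H3K27ac. Within 500 bp lay 358 regions (13.1%), and 1197 (44.0%) had no H3K27ac within 10 kb. Only 33 regions (1.21%) had an H3K27ac peak within 1 kb on both sides. Elsewhere within 3 kb of the same TSS, H3K27ac was present for 966 regions (35.5%, 33.7 to 37.3%), and the other 1757 were at a TSS with none. The selection limit itself passed through adjoining sites: the region at Trappc5 was 1 bp and that at Fam111a 2 bp from an H3K27ac peak, while regions at Pnkd and Ncoa3 overlapped one by 1 and 3 bp and were left out.

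These 2 kinds of promoter differed in position and gene. Where the TSS had H3K27ac elsewhere, 58.3% (55.1 to 61.4%) of the regions were within 500 bp of it and 79.7% had a protein-coding nearest gene. Where it had none, 46.3% (43.9 to 48.6%) were within 500 bp and 59.5% had a protein-coding nearest gene. Both were bound in all 4 libraries to a similar degree, 9.32% (7.56 to 11.3%) and 7.80% (6.59 to 9.15%), with overlapping intervals.

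The nearest gene was protein-coding for 1816 regions (66.7%, 64.9 to 68.5%), against 82.3% (81.1 to 83.4%) of promoter regions with H3K27ac. Long non-coding RNA genes were nearest to 418 (15.4%), pseudogenes to 257 (9.44%), small RNA genes to 116, unverified transcripts (TEC) to 107 and immune gene segments to 9. Pseudogenes were nearest to 2.10% of regions with the mark. Of JunB promoter regions nearest to a pseudogene, 74.3% (69.3 to 78.8%) lacked H3K27ac, against 47.1% (43.7 to 50.4%) at long non-coding RNA genes and 34.3% (33.0 to 35.6%) at protein-coding genes. The protein-coding share was lower without the mark in each library, at 64.7%, 70.3%, 70.4% and 68.8% against 77.7%, 78.4%, 78.1% and 83.4%.

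Pseudogene regions stood apart in other respects. They were seldom bound in all 4 libraries (7 of 257, 2.72%), unlike those at long non-coding RNA genes (46 of 418, 11%) and protein-coding genes (161 of 1816, 8.87%). Their median distance to H3K27ac was 29787 bp, against 4818 bp at protein-coding genes, and 25.3% of their windows were at least 50% soft-masked, against 6.55% at protein-coding genes. How reads of repeats were placed is not given in the sources used here beyond the removal of redundant reads, and its part was not tested.

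**Figure D4:**
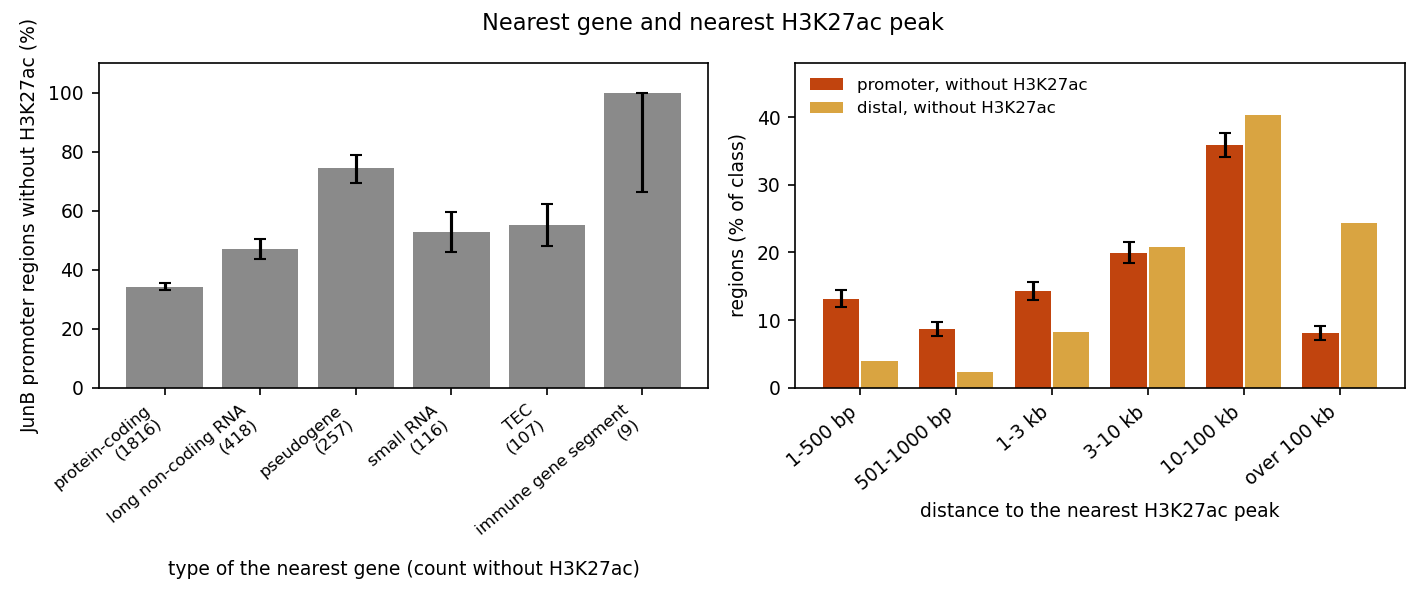
Left, the share of JunB promoter regions that lacked H3K27ac (%, with exact binomial 95% confidence intervals) by type of the nearest gene, with the number of regions without H3K27ac in parentheses. Right, the share of promoter (red) and distal (yellow) JunB regions without H3K27ac at each distance from the nearest H3K27ac peak. Pseudogenes reached 74.3% and protein-coding genes 34.3%, and 8.08% of the promoter regions against 24.4% of the distal ones were over 100 kb from H3K27ac.

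In all, 3100 of 53843 annotated genes (5.76%) had such a region within 3 kb of a TSS, since 550 regions were near the TSS of more than 1 gene. Among protein-coding genes it was 1889 of 21755 (8.68%), and 381 of the 1889 also had a JunB promoter region with H3K27ac. Of protein-coding genes with H3K27ac at a TSS, 10.8% had a region without the mark, and of those with no H3K27ac at any TSS, 6.56% (711 genes).

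Genes of the senescence-associated secretory phenotype (SASP), the cytokines, growth factors and proteases released by senescent cells, were examined with a list of 114 mouse genes that the study used for gene set analysis, which is not its whole SASP set. Of these, 14 (12.3%) had a region without H3K27ac, beside the 8.68% of all protein-coding genes. A JunB promoter region with H3K27ac was present at 16 (14.0%), beside 19.1% of all protein-coding genes, with 1 gene in both counts. At 10 of the 14, no TSS of the gene had H3K27ac within 3 kb. The same held for 711 (37.6%) of the 1889 protein-coding genes with a region without H3K27ac. The list was chosen with results of these data known, so its share is given with no test. Beyond the 6 highest in rank, Tnf, Cxcl10, Plaur, Bmp6, Timp1, Igfbp6 and Gdf15 were named after their values were seen.

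Among receptors, Il6ra, which encodes the interleukin 6 receptor, was bound in all 4 libraries 295 bp inside the gene (chr3:89912470-89912867), although the TSS of the antisense gene Gm42809 was nearer, at 49 bp, with −log10 p of 35.9, 17.7, 19.6 and 21.4 in Young 1, Young 2, Young 3 and Aged 1. Its nearest H3K27ac peak was 49360 bp away. Tnfrsf23, a TNF-receptor family gene, was bound 71 bp upstream in Aged 1 alone (7.25), and Plaur, the urokinase receptor gene, 44 bp downstream in Young 1 alone (3.93).

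Among ligands, the neutrophil chemokine gene Cxcl2 was bound in all 4 libraries 2802 bp upstream of its TSS (chr5:90900450-90901069), with 21.9, 11.7, 17.9 and 8.04. The others were mostly single-library peaks of Aged 1. Il6 was bound across its TSS (chr5:30012820-30013153) with 6.87, the interferon-induced chemokine gene Cxcl10 across its TSS with 4.98, Tnf 1378 bp downstream with 5.93, and Tgfb3, the gene of transforming growth factor beta 3, 77 bp upstream (chr12:86079118-86079850) with 8.38. Each of these Aged 1 values was below the Aged 1 median of 13.5 for regions bound in 4 libraries, and a peak of a single library has no replicate. Bmp6, a bone morphogenetic protein gene, was bound in Young 1 alone, 2351 bp downstream, with 7.65.

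Among protease inhibitors and binding proteins, Timp1, an inhibitor of matrix metalloproteinases, was bound 1 bp upstream of its TSS in Young 1 (7.46), Young 3 (10.2) and Aged 1 (3.40) but not in Young 2. Igfbp6, which binds insulin-like growth factors, was bound 903 bp upstream in Aged 1 (6.21). Gdf15, a stress-induced cytokine gene, was bound 1860 bp downstream in Aged 1 (4.84).

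Of the 12 MuSC genes, 4 had a region without H3K27ac, as had 2 of the 6 fibro-adipogenic progenitor genes, beside 8.68% of all protein-coding genes. Myf5, a myogenic determination factor, had 2 regions. One was 1193 bp upstream (chr10:107487327-107487890), in Young 1 (−log10 p 7.22) and Aged 1 (8.75), and the other 520 bp upstream (chr10:107486654-107487051), in Young 2 (12.0) and Aged 1 (4.797). Cdh15, the muscle cadherin gene, was bound 2717 bp downstream (chr8:122850683-122850994) in Young 2 (11.5) and Aged 1 (10.8). Itga7, the laminin-binding integrin gene, and Cd34, a surface sialomucin gene, were bound in Aged 1 alone, with 5.93 and 3.94. Myf5 had no H3K27ac within 3 kb of its TSS, whereas the other 3 did.

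Of all protein-coding genes, 8.68% had a region without H3K27ac, and several gene families used by other tissues were below that share. Olfactory receptor genes had a region without H3K27ac in 18 of 1135 cases (1.59%), vomeronasal receptor genes in 3 of 331, keratin genes in 2 of 113, and taste receptor (38 genes) and defensin (64 genes) genes in none. Hand-picked liver and gut genes and germline genes had none of 30 each, and neuronal genes 1 of 30, namely Gria1, a glutamate receptor subunit, in Aged 1 alone (7.24). Of the Olfr genes, 17 of the 18 had no H3K27ac at any TSS, and of all 1135 only 14 (1.23%) had it. The regions at Olfr54 and Olfr8 had the same −log10 p of 7.46 in Young 1 and windows that were 100% and 93.0% soft-masked.

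Other families, apart from serpins and cytochrome P450 genes, lay nearer to the 8.68% of all protein-coding genes. Developmental factor genes of the Fox, Gata, Sox, Pax, Tbx, Lhx and Nkx families had a region in 9 of 120 cases (7.5%), with Tbx3 (18.3 in Aged 1 alone) the highest in rank, and Hox genes in 3 of 39 (Hoxc6, Hoxc11 and Hoxa9). Solute carriers did so in 35 of 385 (9.09%), genes with Rab or Arf symbols in 11 of 97 (11.3%), and potassium, sodium and calcium channels in 11 of 134 (8.21%). The families were taken by symbol prefix, so they can hold genes of like name outside the family, such as Rabggta. Zfp genes did so in 18 of 397 (4.53%), although 80.9% of them had H3K27ac at a TSS. Slc16a9, a gene of the monocarboxylate transporter family, was bound in all 4 libraries with 19.7, 19.3, 17.6 and 10.2, as was Slc25a25, a mitochondrial ATP carrier gene, with 23.5, 13.9, 14.9 and 15.6. Serpins had 1 of 61 (1.64%), interferon-induced genes 3 of 53 (5.66%), protocadherins 4 of 69 (5.80%) and cytochrome P450 genes 3 of 96 (3.1%). In the other marker lists, Pdgfra and Col3a1 of 6 fibro-adipogenic progenitor genes had a region (33.3%, as in the MuSC list). So had Cd68 of 8 immune genes (12.5%) and Notch3 of 5 smooth muscle and pericyte genes (20%). None of the 6 endothelial or 6 myofibre genes had one. These shares rest on few genes. The region at Cd68 had a peak in all 4 libraries, with −log10 p of 5.63, 17.0, 9.93 and 6.63 in Young 1, Young 2, Young 3 and Aged 1. Those at Pdgfra, Col3a1 and Notch3 had a peak in 1 library each.

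Sequence was not used in the selection and was compared next. The AP-1 word, TGACTCA or TGAGTCA, each the reverse complement of the other, was present within 50 bp of the summit in 126 of the 2723 regions (4.63%, 3.87 to 5.48%) and in 107 of the 4233 with H3K27ac (2.53%, 2.08 to 3.05%). In distal regions without H3K27ac it was present in 3.87% (3.46 to 4.31%). It was present in 1.33% of windows of the same length at all 130588 annotated TSS positions. In windows 500 bp to either side of the summit the share was 1.54% without and 1.22% with H3K27ac. Where present, the middle of the word lay a median of 23 bp from the summit. The search reached only 50 bp to either side, which bounds this distance, so the median is not read as centring on the summit.

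By each library's own summits, the AP-1 share without H3K27ac was 7.86% in Young 1 (81 of 1031), 6.67% in Young 2 (33 of 495), 8.27% in Young 3 (33 of 399) and 3.99% in Aged 1 (86 of 2154). With H3K27ac it was 4.11%, 3.01%, 4.59% and 2.24%. The young mean was 7.60% ± 0.83 (SD, n = 3) without and 3.90% ± 0.81 with the mark, so the difference exceeded the spread between young libraries, and the share was higher without the mark in 4 of 4 libraries. Flanks had between 1.38% and 1.70%. Aged 1 lay below every young library in both classes. Without Aged 1 the pooled share was 7.37% in place of 4.63%. The aged list also reached to lower −log10 p than those of Young 2 and Young 3, though not lower than that of Young 1.

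**Figure D5:**
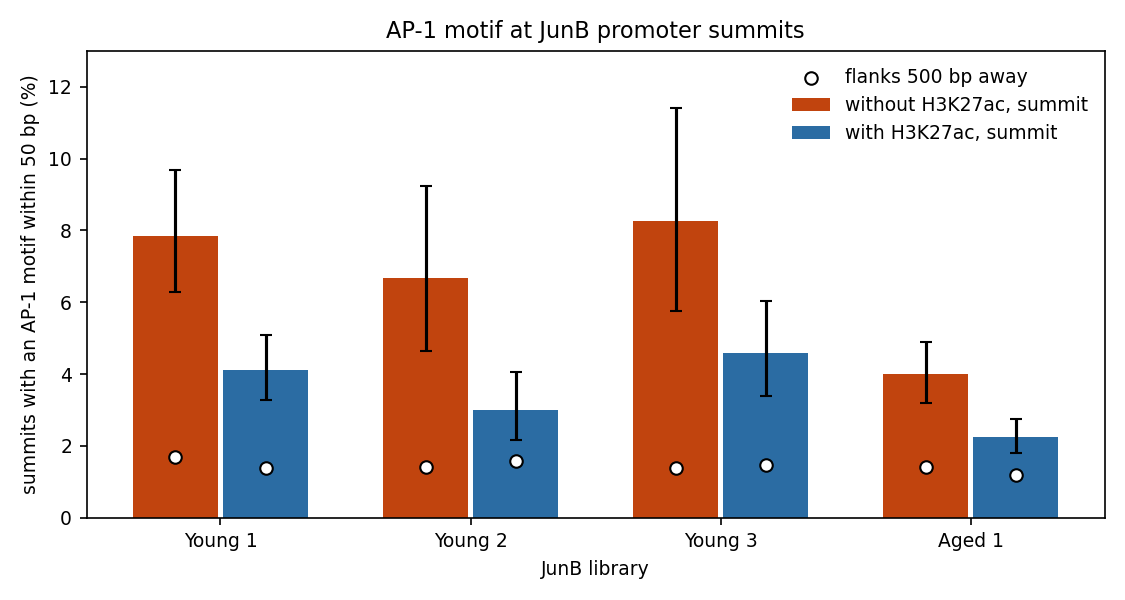
Share of windows reaching 50 bp to either side that held the AP-1 word (%, vertical axis) at the summits of JunB promoter regions without (red) and with (blue) H3K27ac in each library, with exact binomial 95% confidence intervals, and in flanks 500 bp away (open circles). The red bars, from 3.99% in Aged 1 to 8.27% in Young 3, exceeded the blue bars in all 4 libraries, and the flanks lay between 1.19% and 1.70%.

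The AP-1 share was 4.24% (3.40 to 5.22%) for regions of 1 library, 4.23% (2.27 to 7.13%) for 2, 4.89% (2.26 to 9.08%) for 3 and 8.37% (5.11 to 12.8%) for all 4, with overlapping intervals, and 1.03% where at least 50% of the window was soft-masked. Of regions spanning a TSS, 3.35% without and 1.89% with H3K27ac had the word, and at 1 to 500 bp 4.27% and 1.75% did. At over 1 kb, 5.57% (4.23 to 7.19%) without and 6.33% (4.45 to 8.69%) with the mark had it, so the direction did not hold there. Since regions with the mark lay mostly at the TSS, the pooled comparison also carries that difference in position.

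Other words of promoter factors were less frequent without H3K27ac. GGGCGG, the word of SP and KLF factors, was present in 11.2% of regions without H3K27ac (10.01 to 12.4%), 16.8% with it and 16.0% of all TSS windows. CCGGAAG, the ETS word, was present in 1.73%, 3.59% and 4.18%. TGTGGTT, the RUNX word, was more frequent without H3K27ac and was present in 2.61% (2.04 to 3.28%), 1.32% (1.001 to 1.71%) and 1.70%. Intervals of both classes overlapped for the YY1 word AAGATGGC (0.48% and 1.02%), the core CTCF word AGGGGGCG (1.18% and 1.75%), CCAATC (4.15% and 5.01%), the E-box CAGCTG (5.84% and 6.09%), the TEAD word ACATTCC (1.21% and 1.37%) and the cyclic AMP response word TGACGTCA (0.40% and 0.50%). All words were searched on both strands, and no word of the list contains another, although GGGCGG and AGGGGGCG can overlap in part.

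The median GC content within 150 bp of the summit was 51.2% without and 56.8% with H3K27ac, and the ratio of observed to expected CpG was 0.34 and 0.66. In distal regions without H3K27ac both were lower, at 45.2% and 0.20. By library, median GC content without the mark was 50.5%, 51.8%, 51.2% and 52.2%, against 54.8%, 55.1%, 54.2% and 57.5%. Among regions that spanned a TSS, the CpG ratio was 0.68 and 0.76, so the gap was narrower at a matched position. Base composition, TSS distance and gene type thus moved together with the presence of H3K27ac, and their separate parts were not tested.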

How the data were processed

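The peak lists of 4 JunB and 1 H3K27ac CUT&RUN-seq libraries were used. The authors trimmed and filtered reads and aligned them with Bowtie2 (mm10). Redundant reads were dropped, and MACS2 peaks were deposited separately for each library. Versions and a control library are not given in the sources used here. For each peak the deposited lists give a fold enrichment (a ratio to the local background of that library), a −log10 p and a −log10 q. The score the authors' peak caller wrote repeats 1 of these and was not used.

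Peaks on chromosomes 1 to 19 and X were merged (gap 0 bp). TSSs of all transcripts of GENCODE M21 were used, and distance ran from the nearest edge of the region. An overlap of 1 bp with an H3K27ac peak removed a region. Summits were those of the peak with the highest percentile rank, and sequence was read from GRCm38.p6. Shares carry exact (Clopper-Pearson) 95% intervals. Libraries were compared by an exact sign-flip permutation test. Code was tested on simulated data against bedtools 2.31.1, with Python 3.11.15 and SciPy 1.17.1. Regions were named by rank within library among those bound in 4 libraries (10), Aged 1 alone (5), young only (5), non-coding genes (3), gene lists (up to 6), each limit (2) and the densest runs (3). One region that this rule names is not reported here. The members and lists were chosen with earlier results of these data known. Where nothing says that replicates came from separate mice beyond the label of biological replicate, the spread measures these libraries only. Alternatives changed peak thresholds, libraries, merging, promoter window, TSS set and H3K27ac peaks.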

Additional observations from a re-analysis of the deposited data

Results flagged for a closer look

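Chromosome Y was left out by the selection and yet held JunB promoter binding without H3K27ac. Of 131 merged JunB regions there, 8 were within 3 kb of a TSS and overlapped no H3K27ac peak. Of the 8, 3 had a peak in Young 1, 6 in Aged 1 and none in Young 2 or Young 3. The young libraries held 60, 6 and 4 peaks on this chromosome and Aged 1 held 85, and the sex of the mice is not given in the labels. No group held the 4 libraries needed to search for an outlying sample.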

How the results depend on the processing

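Of 133 values recomputed under alternative processing, 43 moved beyond their limit and 90 did not. The limit was 1.5 times for the count of regions, the exact 95% interval for the shares in 1 library and in Aged 1 alone, and the SD of the young libraries for the other shares. The fold difference, the one value that could change sign, stayed negative in all 16 alternatives, between −0.63 and −0.25. Leaving out 1 library at a time gave between 1208 regions (without Aged 1) and 2694, a share of promoter regions of 35.6 to 39.2%, a share in 1 library of 58.9 to 79.9%, in Aged 1 alone of 58.2 to 74.5%, within 500 bp of 44.9 to 53.8%, with AP-1 of 4.21 to 7.37% and with H3K27ac elsewhere at the TSS of 35.3 to 39.8%. With the 2000 top peaks of each library there were 381 regions, 26.0% of promoter regions, of which 45.4% were in 1 library, 23.4% in Aged 1 alone, 71.1% at protein-coding genes, 7.09% with AP-1 and 43.8% with H3K27ac elsewhere at the TSS. With peaks in at least 2 libraries there were 718 (27.4%), 71.0% at protein-coding genes, 5.71% with AP-1 and 41.2% with H3K27ac elsewhere. A 1 kb window gave 1736 (32.1%), 61.2% in Aged 1 alone, 72.1% at protein-coding genes and 38.4% with H3K27ac elsewhere. Protein-coding TSSs alone gave 34.2%, with 71.9% in 1 library, 55.2% within 500 bp and 43.5% with H3K27ac elsewhere. H3K27ac peaks extended by 500 bp gave 34%, with 47.2% within 500 bp and 28.5% with H3K27ac elsewhere, and H3K27ac peaks of −log10 q at least 5 gave 71.6% in 1 library and 30.7% with H3K27ac elsewhere. JunB peaks of −log10 q at least 2 gave 70.6% in 1 library, and those above the highest of the 4 lowest −log10 p values 68.0% in 1 library and 51.2% in Aged 1 alone. The region midpoint gave 46.4% within 500 bp, and a motif window of 100 bp on either side 11.3% with AP-1. Leaving out regions at least 50% soft-masked, chosen after seeing the data, gave 71.8% in 1 library and 54.2% within 500 bp. Why these values moved was not tested. Ages were not paired, because there was 1 aged library and no label links it to a young one. Only region classes were compared within libraries. No read depth was known, so a missing peak does not show that JunB was absent.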
